A study of Homo sapiens with 8 samples.

Results

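Collagen genes were followed in MDA-MB-231 cells, a widely used human cell line derived from triple-negative breast cancer, after exposure to 2 related phosphonium salts with or without UV-A light. The members were the protein-coding genes whose symbol has the form COL, a number, A, a number in the gene tables of both sequencing rounds. They numbered 43 of the 45341 genes that the tables share. COL26A1 has such a symbol but is annotated as a polymorphic pseudogene in the round 1 table and was left out. The classes held 11 fibrillar collagens, 6 basement membrane (type IV) collagens, 10 FACIT collagens, 4 transmembrane collagens and 12 others.

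Collagens are extracellular proteins in which 3 chains wind into a triple helix. Fibrillar chains assemble into the banded fibrils of connective tissue, type IV chains form the network of basement membranes, FACIT collagens sit on the surface of fibrils, and transmembrane collagens stay anchored in the plasma membrane. Chains are hydroxylated and folded in the endoplasmic reticulum with dedicated enzymes and chaperones, and are cross-linked outside the cell by lysyl oxidases. In breast tumours most fibrillar collagen is made by stromal fibroblasts, while carcinoma cells contribute basement membrane and minor collagens.

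The 6 groups paired vehicle, 1-SO or 1-S with either dark or UV-A. Both vehicle groups had n = 2 libraries, 1 in each round, and each compound group had n = 1. Round 1 held 1-SO and cells at passage 8, and round 2 held 1-S and cells at passage 32 to 34, so that compound, round and passage cannot be told apart. Compounds were given at 10 µM for 24 h, the vehicle was 1% DMSO, and UV-A lasted 30 min under 8 bulbs in 1 plate while the other plate stayed dark. 1-SO carries an oxo group on its dibenzothienyl part that 1-S lacks. The spread between the 2 libraries of a vehicle group is thus one between rounds and passages, and no round holds a second vehicle library under the same light. Nothing in the labels says that the wells of 1 round came from separate cultures, so differences within a round may be partly technical. Where 4 values of a round are listed together below, they stand in the order of dark vehicle, irradiated vehicle, dark compound and irradiated compound. The libraries are bulk, and fewer cells making a transcript and less of it per cell cannot be told apart.

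Library totals were 15.82 to 22.56 M reads, and a count of 0 allowed up to 0.133 to 0.19 reads per 1e+06 (3 reads; counting error only). Markers listed as high in the line were present in all libraries, but only some of those listed as low were nearly absent. VIM was at 219 to 317 FPKM (fragments per kilobase of gene and per 1e+06 reads). CD44, AXL and CAV1 were lower than in vehicle with 1-S under both lights, and with 1-SO under UV-A. Under UV-A they were at 197, 282 and 124 FPKM in vehicle of round 1 and at 132, 210 and 53.7 FPKM with 1-SO. In round 2 under UV-A they were at 62.3, 323 and 119 FPKM in vehicle and at 28.3, 123 and 45.3 FPKM with 1-S. VIM and ZEB1 were higher with 1-S there, at 226 and 11.4 FPKM in vehicle and 250 and 15.1 FPKM with 1-S. Under UV-A of round 1, VIM and ZEB1 were at 283 and 17.0 FPKM in vehicle and at 283 and 16.2 FPKM with 1-SO. ESR1, PGR and CDH1 were at no more than 0.14 FPKM. ERBB2, listed here as low in the line, was at 9.78 to 29.2 FPKM. EPCAM and GATA3, also listed as low, were at 2.25 to 5.57 and 2.46 to 3.47 FPKM. The fibroblast gene DCN was at 0 in all 8 libraries, and LUM, PDGFRA and COL3A1 were at no more than 0.0847 FPKM. PDGFRB was at 0.709 to 1.22 FPKM, and VWF, CDH5, CD3E and PTPRC were at no more than 0.116 FPKM. CD14 was at 0.731 to 1.43 FPKM outside the 1-S libraries, and at 3.03 and 2.25 FPKM in them.

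Promoter sequences from RefSeq (GRCh38.p14) were available for 31 of the 43 members, as 43 windows of 300 bases. The stretch between the starts of COL4A1 and COL4A2 is shown because these genes, which encode the partner chains of the ubiquitous type IV collagen, are read in opposite directions from starts 127 bases apart and moved together in the tests below. Capitals mark CCAAT and the GC box GGGCGG. The bases before the starts of COL13A1 and COL7A1 are shown as examples of windows that hold TATAAA, chosen after the motif was seen. Of the other genes that fell with 1-SO UV-A against vehicle UV-A, COL18A1 holds it in 1 of 2 windows. The windows of COL4A1, COL4A2 and COL5A1 do not hold it, and COL8A1 has no window. Of the further genes that fell in UV-A within 1-SO cells, COL17A1 holds it. The windows of COL27A1 and COL6A3 do not, and COL6A1 has no window. Capitals in the stretches of COL13A1 and COL7A1 mark TATAAA or its reverse complement.
COL4A1/COL4A2, chr13:110307158-110307283, + strand: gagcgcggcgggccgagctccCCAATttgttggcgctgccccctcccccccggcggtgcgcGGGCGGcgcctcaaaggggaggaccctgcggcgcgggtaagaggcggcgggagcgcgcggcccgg
COL13A1, chr10:69801656-69801905, + strand: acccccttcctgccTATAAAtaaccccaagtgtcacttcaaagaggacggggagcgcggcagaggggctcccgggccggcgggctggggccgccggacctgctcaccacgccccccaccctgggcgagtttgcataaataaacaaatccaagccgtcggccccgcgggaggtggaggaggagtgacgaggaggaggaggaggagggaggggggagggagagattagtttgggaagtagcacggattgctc
COL7A1, chr3:48595330-48595579, - strand: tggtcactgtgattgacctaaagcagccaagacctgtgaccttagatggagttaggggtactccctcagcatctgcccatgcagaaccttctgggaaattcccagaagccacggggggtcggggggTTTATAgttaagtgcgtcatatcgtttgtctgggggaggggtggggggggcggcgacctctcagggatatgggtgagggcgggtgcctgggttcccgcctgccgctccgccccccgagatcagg
Both strands were searched over the 300-base windows, and none of these motifs contains another. GGGCGG was present in 24 of the 43 collagen windows (55.8%) and in 45.0% of all 35116 windows. TATAAA was present in 8 collagen windows (18.6%), from COL6A2, COL6A6, COL7A1, COL10A1, COL13A1, COL17A1 and COL18A1, and in 11.5% of all windows. CCAAT was found in 32.6% of collagen windows against 34.6% of all. The AP-1 motif TGANTCA was found in 1 collagen window (2.3%), that of COL10A1, against 7.7% of all, and TGACGTCA in 0 against 1.8% of all.

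Most collagen RNA of these cells came from few genes, and not from fibril-forming ones. In round 1 the summed collagen level was 354 FPKM in vehicle dark and 259 in vehicle UV-A, then 342 in 1-SO dark and 146 in 1-SO UV-A. In round 2 it was 232 FPKM in vehicle dark and 217 in vehicle UV-A, then 136 in 1-S dark and 99.0 in 1-S UV-A. The lowest sum of each round was thus in the irradiated compound library, and 1-S dark was also below both vehicles. Levels are comparable within a round only, since the tables of the rounds use different gene lengths.

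**Figure D1:**
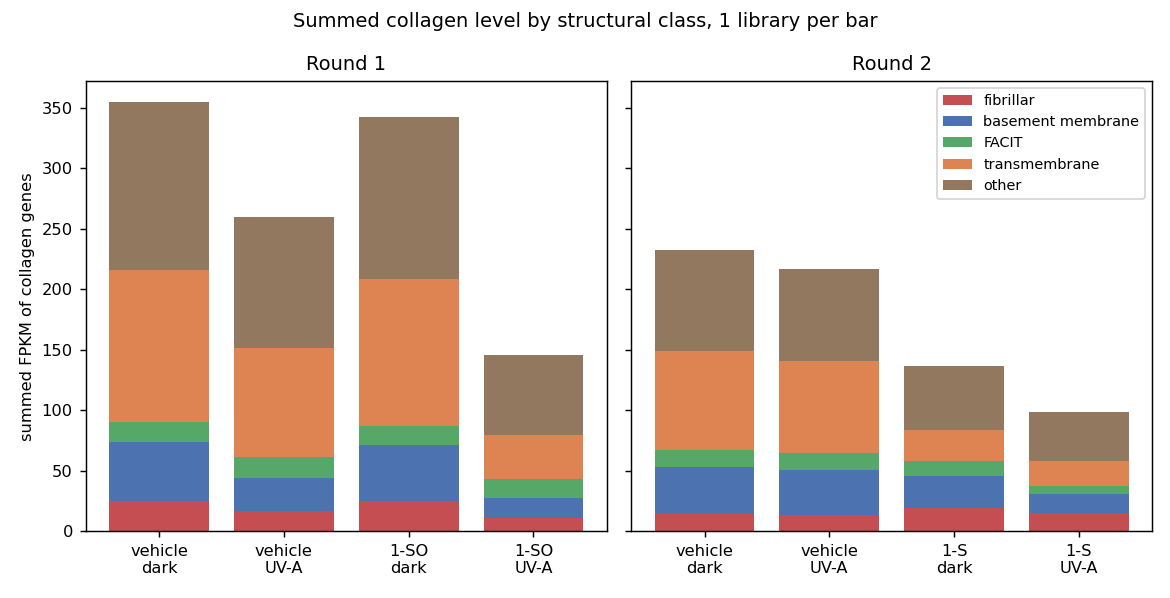
Summed FPKM of the 43 collagen genes in each library (1 bar per library), stacked by structural class, with round 1 on the left and round 2 on the right. The sum is 146 FPKM in 1-SO UV-A against 259 in the vehicle UV-A library of round 1, and 136 and 99.0 FPKM in the 1-S libraries against 232 and 217 in the vehicles of round 2.

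COL13A1, a transmembrane collagen of cell junctions, was the most abundant member in every library. It made up 34.9% of collagen FPKM in vehicle dark of round 1 and 24.1% in 1-SO UV-A, and 34.6% in vehicle dark of round 2 against 18.3% in 1-S dark and 20.0% in 1-S UV-A. The fibrillar class held 7.1% of collagen FPKM in vehicle dark of round 1 and 7.8% in 1-SO UV-A. In round 2 its share was 6.0% in vehicle dark, 6.1% in vehicle UV-A, 14.1% in 1-S dark and 15.3% in 1-S UV-A. The basement membrane share was 13.7, 10.3, 13.4 and 11.3% in the 4 libraries of round 1, and 17.0, 17.4, 19.6 and 15.5% in the corresponding libraries of round 2.

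Of the 43 members, 16 had a mean level of at least 1 FPKM in round 1 and 13 in round 2. At the other end, 14 members in round 1 and 11 in round 2 had no more than 3 reads in each library. COL6A5 had no read in any of the 8 libraries. The low end included COL1A2 and COL3A1, major chains of interstitial fibrils, with 0 to 7 and 1 to 11 reads per library. COL1A1, whose chain usually assembles with that of COL1A2, had 209 to 1520 reads in the same libraries.

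Tests were run on the 15476 genes that reached 0.5 CPM (reads per 1e+06) in at least 2 of the 8 libraries. They included 27 collagens, namely 7 of 11 fibrillar, 5 of 6 basement membrane, 5 of 10 FACIT, 2 of 4 transmembrane and 8 of 12 other members. COL2A1 passed only through 1-S libraries. The quasi-likelihood test of edgeR was fitted to all 8 libraries with the round as a term, and a gene was called at a Benjamini-Hochberg adjusted p under 0.05. The fit shares 1 light response between the vehicles of the rounds, and its only residual degree of freedom is the difference of that response between rounds. No call therefore rests on a spread between wells of a compound. When the round term was left out, 0 collagens were called in any comparison of the 8-library fit. The share of all genes called without that term is not given here.

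**Figure D2:**
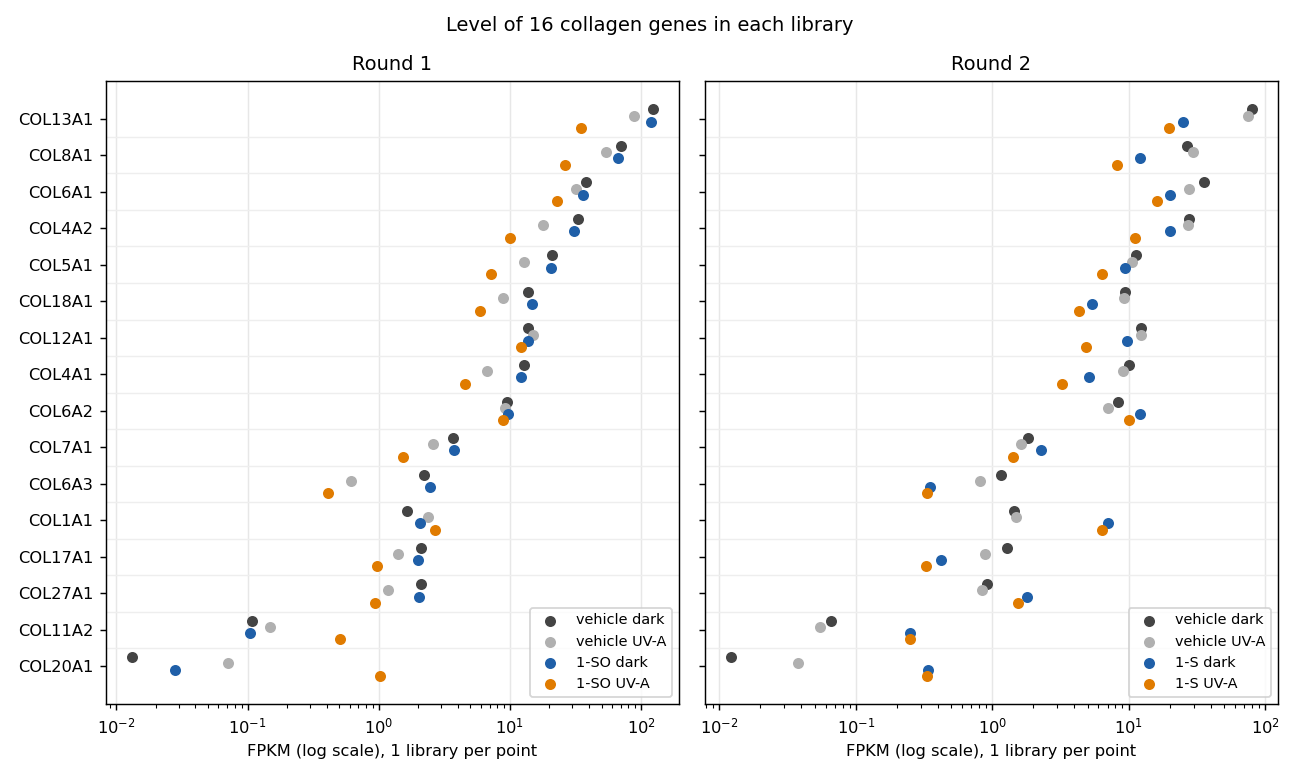
FPKM of 16 collagen genes on a log scale, with 1 point per library and the rounds in separate panels. COL13A1, COL8A1, COL4A2, COL5A1 and COL18A1 are lowest in the irradiated compound library of each round. In round 1, COL20A1 is at 1.03 FPKM in 1-SO UV-A against no more than 0.0703 FPKM in the vehicles and 1-SO dark. In round 2 it is at 0.338 and 0.334 FPKM in the 1-S libraries against no more than 0.0377 FPKM in the vehicles.

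UV-A alone left no collagen called, and several collagens were lower in the irradiated vehicle library of round 1 than in that of round 2 relative to their dark controls. The test of UV-A in vehicle cells called 0 of 27 collagens, with 0.0% of all tested genes called. At an unadjusted p under 0.05, 437 genes and 9 collagens passed this edgeR test, and DESeq2 called 0 collagens. The median fitted log2 change was -0.35 over the collagens tested and -0.01 over all genes. COL4A2 was at 32.9 FPKM in vehicle dark and 17.8 in vehicle UV-A of round 1, but at 27.8 and 27.3 FPKM in round 2. COL4A1 went the same way, with 12.8 and 6.66 FPKM in round 1 and 10.1 and 9.04 in round 2. COL6A3, a long chain of the beaded-filament collagen VI, was at 2.20 and 0.612 FPKM in round 1 and at 1.15 and 0.815 FPKM in round 2, and had the lowest adjusted p of the members (0.52, edgeR; log2 change -1.14, SE 0.26). For all 3 genes the vehicle UV-A library was below vehicle dark in both rounds, by more in round 1.

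1-SO in the dark left no collagen called either. Against vehicle dark, edgeR called 0 of 27 collagens and 0.0% of all genes. At an unadjusted p under 0.05, 70 genes and 1 collagen, COL11A1, passed, and DESeq2 called 0 collagens. COL13A1 was at 124 FPKM in vehicle dark and 119 in 1-SO dark, a fitted log2 difference of 0.03 (95% interval -0.39 to 0.45). The interval was -0.36 to 0.55 for COL4A2, -0.39 to 0.46 for COL8A1 and -0.30 to 0.71 for COL1A1. Changes of more than about these sizes were therefore not seen, while smaller ones were not detectable with 1 library. COL11A1, a nucleator of thin fibrils, had 9 reads in vehicle dark, 8 in vehicle UV-A, 31 in 1-SO dark and 11 in 1-SO UV-A, and its adjusted p was 1.0 in edgeR.

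With 1-SO and UV-A together, the abundant collagens of most classes were low. COL13A1 was at 124 FPKM in vehicle dark and 89.0 in vehicle UV-A, then 119 in 1-SO dark and 35.1 in 1-SO UV-A. COL8A1, a short-chain collagen of vessel walls and corneal membranes, was at 70.8, 54.2, 66.9 and 26.1 FPKM in the same order. COL5A1, a chain that sets the width of type I fibrils, was at 20.9, 12.9, 20.5 and 7.15 FPKM. In each of these genes 1-SO UV-A was the lowest library and vehicle UV-A the next. COL4A2 followed the same order at 32.9, 17.8, 30.7 and 10.1 FPKM, and so did its partner COL4A1 at 12.8, 6.66, 12.2 and 4.55 FPKM. COL18A1, a basement membrane proteoglycan whose end fragment is endostatin, was at 13.7, 8.86, 14.8 and 5.91 FPKM. COL7A1, which forms the anchoring fibrils beneath epithelia, was at 3.69, 2.60, 3.75 and 1.53 FPKM. All 7 of these genes fell in the test of 1-SO UV-A against vehicle UV-A.

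That test called 8 of 27 collagens, 1 higher and 7 lower, where 8.5% of all genes were called (3.14% higher and 5.36% lower). The median fitted log2 change was -0.65 over the collagens tested and 0.01 over all genes. COL13A1 fell by 1.56 on the log2 scale (SE 0.22, adjusted p = 6.8e-05, edgeR) and COL8A1 by 1.31 (SE 0.22, adjusted p = 0.0004, edgeR). COL4A2 fell by 1.16, COL5A1 by 1.13, COL7A1 by 0.96, COL4A1 by 0.89 and COL18A1 by 0.86, with adjusted p of 0.00138 to 0.02 in edgeR. The fit compares 1-SO with a vehicle response averaged over the rounds. Against the single vehicle UV-A library of round 1, the log2 ratio of read shares was -0.55 for COL4A1, -0.81 for COL4A2, -0.58 for COL18A1 and -1.34 for COL13A1. Without that library the fitted values were -1.53 for COL4A1, -1.86 for COL4A2 and -1.36 for COL18A1, so these 3 depend on it for their size. DESeq2 called 3 collagens here, all lower, with its share of all genes not given. In the authors' deposited table of this pair COL20A1 was the only collagen at an adjusted p under 0.05, among 25 higher and 37 lower genes.

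Between the 1-SO libraries, most abundant collagens were lower under UV-A and COL20A1 was higher. UV-A in 1-SO cells called 12 of 27 collagens, 1 higher and 11 lower, beside 11.5% of all genes (4.14% higher and 7.41% lower), and compares 1 library with 1 library. The median fitted log2 change was -1.08 over the collagens tested and 0.01 over all genes. COL6A3 had 445, 104, 468 and 98 reads in the 4 libraries of round 1, and fell by 2.71 on the log2 scale between the 1-SO libraries (SE 0.38, adjusted p = 4e-05, edgeR). Its vehicle UV-A library was also low, at 0.612 FPKM against 0.410 in 1-SO UV-A, and COL6A3 was not called between those groups. The other genes that fell within 1-SO cells were COL13A1 (-1.90), COL4A2 (-1.74), COL5A1 (-1.65), COL4A1 (-1.56), COL8A1 (-1.50), COL18A1 (-1.45), COL7A1 (-1.43), COL27A1 (-1.27), COL17A1 (-1.19) and COL6A1 (-0.78), all as log2 changes. COL17A1, a hemidesmosome collagen, was at 2.10, 1.40, 2.01 and 0.966 FPKM in the 4 libraries of round 1. The fibrillar COL27A1 was at 2.11, 1.17, 2.04 and 0.930 FPKM, and COL6A1, a short chain of collagen VI, at 38.3, 31.9, 35.8 and 22.9 FPKM. In all 3 the 1-SO UV-A library was the lowest.

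COL20A1, a FACIT collagen on chromosome 20 (chr20:63293186-63334851, GRCh38), went the other way. It had 2 reads in vehicle dark, 9 in vehicle UV-A, 4 in 1-SO dark and 185 in 1-SO UV-A, and stood at 1.03 FPKM in the last. The group with both treatments stood apart from the other libraries of its round. Its share of reads was 14.6 times that of vehicle UV-A (95% counting interval 7.54 to 32.5) and 37.0 times that of 1-SO dark (14.2 to 137). It rose by 3.86 on the log2 scale against vehicle UV-A (SE 0.62, adjusted p = 0.00026, edgeR) and by 5.04 between the 1-SO libraries (SE 0.74, adjusted p = 6.3e-05, edgeR). COL11A2, a fibrillar chain of cartilage, had 13, 15, 12 and 73 reads in the 4 libraries of round 1 and was not called against vehicle UV-A or within 1-SO cells. It was near the threshold within 1-SO cells, with a fitted log2 change of 2.14 (95% interval 0.68 to 3.6).

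COL12A1 and COL6A2 showed only small differences in round 1. COL12A1, a FACIT collagen of stressed connective tissue, was at 13.8, 15.0, 13.8 and 12.2 FPKM in the 4 libraries of round 1. COL6A2 was at 9.49, 9.21, 9.67 and 8.91 FPKM. Neither was called against vehicle with 1-SO or in UV-A within 1-SO cells. Of the less abundant members, COL1A1 was at 1.65, 2.36, 2.08 and 2.67 FPKM, COL4A5 at 2.46, 2.07, 2.39 and 1.37 FPKM, and COL9A2 at 2.12, 1.84, 1.71 and 2.00 FPKM in that order. COL16A1, a FACIT collagen found with fibrils, was at 0.322 to 0.455 FPKM, and COL15A1 had 9 to 20 reads, COL8A2 5 to 16 and COL23A1 0 to 2. COL23A1 was not tested, and the others were not called against vehicle with 1-SO or in UV-A within 1-SO cells. Within 1-SO cells COL4A5 was near the threshold, with a fitted log2 change of -0.94 (SE 0.31, adjusted p = 0.0509, edgeR). Over both lights within round 1 alone, a fit of light and compound called 0 of 25 collagens and 0.0% of all genes. There 877 genes and 5 collagens had an unadjusted p under 0.05 in edgeR, and DESeq2 called 0 collagens.

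**Figure D3:**
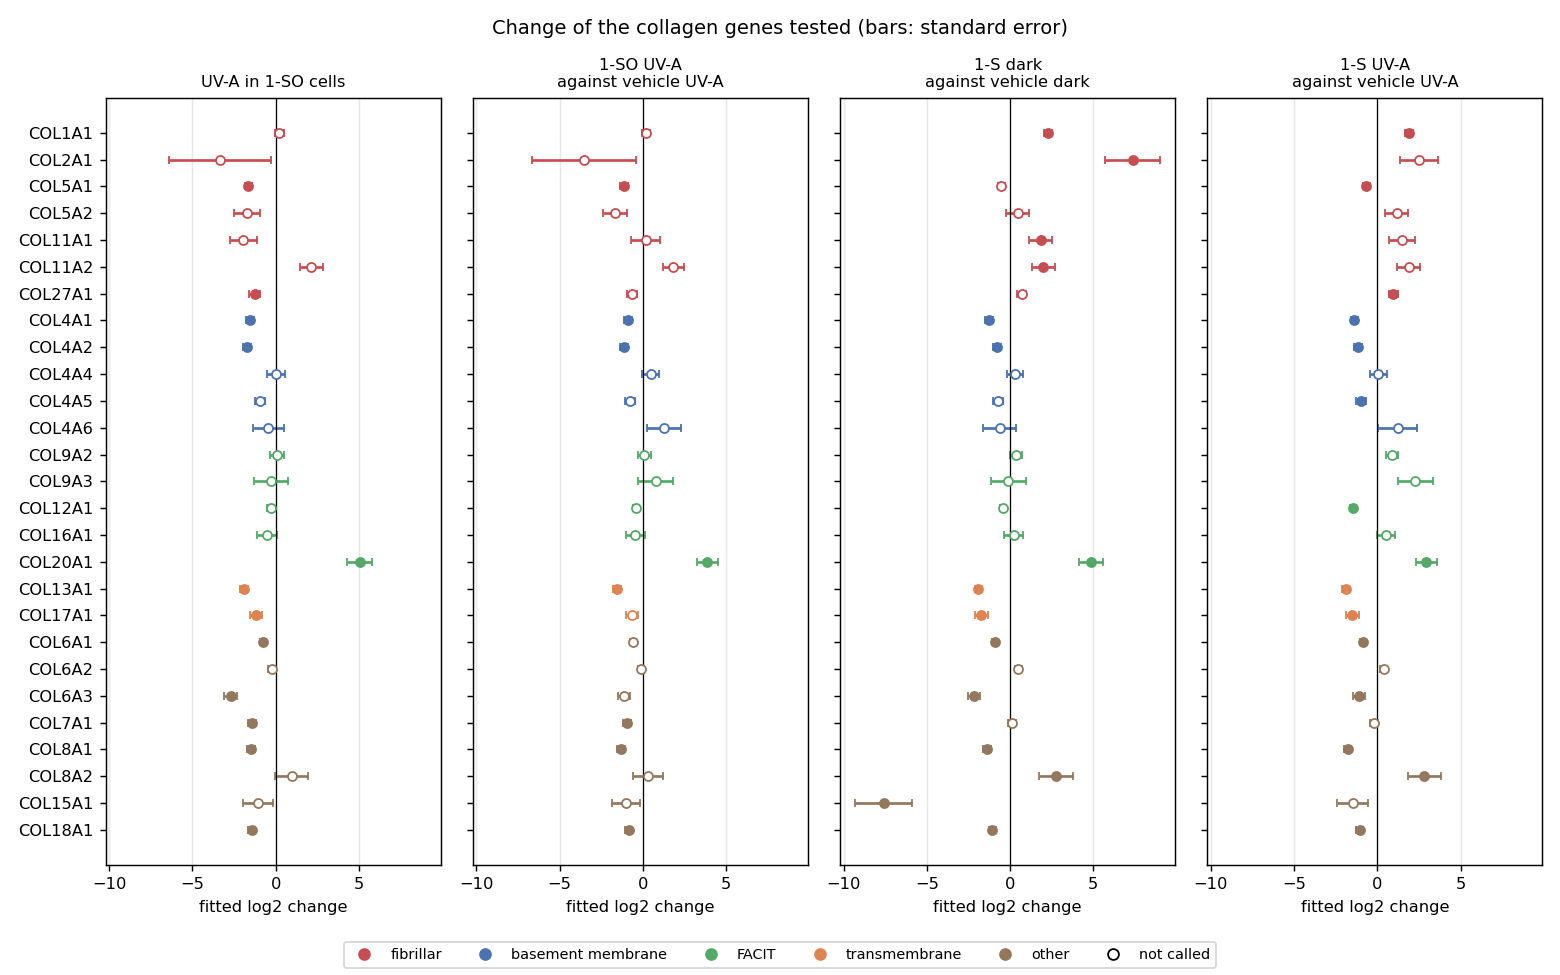
Fitted log2 change with its standard error for the 27 collagens tested in 4 comparisons, coloured by class, with filled points for genes called at an adjusted p under 0.05. COL13A1 is called lower in all 4 panels and COL20A1 higher in all 4, whereas COL1A1 is called in the 1-S panels only, and the values of COL2A1 in all panels but that of 1-S UV-A, and of COL15A1 in 1-S dark, rest on a library with no read and depend on the prior count.

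1-S changed collagens in the dark as well as under UV-A, with COL1A1, COL8A2 and COL20A1 higher under both lights and COL13A1, COL17A1, COL4A1, COL4A2, COL6A1, COL6A3, COL8A1 and COL18A1 lower under both. In the dark 15 of 27 collagens were called against vehicle dark, 6 higher and 9 lower, beside 27.0% of all genes (13.6% higher and 13.4% lower). Under UV-A 15 of 27 were called against vehicle UV-A, 4 higher and 11 lower, beside 23.4% of all genes (11.6% higher and 11.9% lower). Without COL2A1, 5 of the other 26 tested collagens were higher in the dark. The other 6 fibrillar members tested had 3 higher and 0 lower in the dark, with a median log2 change of 1.27, and 2 higher and 1 lower under UV-A, with a median of 1.33. Both transmembrane members tested fell under both lights. Medians over all genes were 0.01 in both comparisons.

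COL1A1, the main chain of type I collagen, was at 1.45 FPKM in vehicle dark and 1.49 in vehicle UV-A, then 7.09 in 1-S dark and 6.39 in 1-S UV-A. The read counts were 321, 318, 1520 and 1197, and the 1-S libraries did not overlap with the vehicles. It rose by 2.29 on the log2 scale in the dark (SE 0.23, adjusted p = 7.9e-08, edgeR) and by 1.91 under UV-A (SE 0.23, adjusted p = 1.8e-06, edgeR). COL1A2 had 2, 1, 2 and 2 reads in the same libraries. COL1A1 is also on the list of fibroblast markers. In 1-S dark and 1-S UV-A, DCN was at 0, LUM at 0.0152 and 0.0174 FPKM, PDGFRA at 0 and 0.0323, PDGFRB at 1.22 and 0.801, and COL3A1 at 0.0134 and 0.0847, with PDGFRB at 1.20 in both vehicle libraries. Summed over the 4 fibroblast markers that are no collagen, the level was 1.22 and 1.21 FPKM in the vehicles of round 2 and 1.24 and 0.851 FPKM with 1-S. The sum of 3 blood cell markers, nearly all of it CD14, was 1.53 and 0.819 FPKM in the vehicles and 3.07 and 2.33 FPKM with 1-S, and its part in these results was not tested.

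Cartilage-type fibrillar chains were weak in vehicle and had more reads with 1-S under both lights. COL2A1 had 0 reads in vehicle dark, 3 in vehicle UV-A, 30 in 1-S dark and 16 in 1-S UV-A. With 3 reads set for vehicle dark, its ratio of read shares in the dark was 10.3, with counting error of the 30 reads not included. COL2A1 reached the count minimum in the 1-S libraries alone, which fixes the direction of its test, so no p is given. Under UV-A the ratio of read shares was 6.08 (95% counting interval 1.74 to 32.6). COL11A2 had 10, 8, 37 and 32 reads and COL11A1 had 15, 7, 49 and 23 reads, in the same order. Their fitted log2 changes under UV-A were 1.89 (95% interval 0.43 to 3.34) and 1.5 (-0.12 to 3.11), near those in the dark. Both rose in the dark, by 2.00 and 1.85 on the log2 scale (adjusted p = 0.033 and 0.0481, edgeR), and neither was called under UV-A. COL27A1 was at 0.912, 0.835, 1.80 and 1.54 FPKM and rose by 0.97 under UV-A (SE 0.28, adjusted p = 0.0126, edgeR). Without the vehicle UV-A library of round 2 that value was 1.61. COL5A1, the most abundant fibrillar member, was at 11.3, 10.6, 9.39 and 6.42 FPKM, and fell by 0.66 under UV-A (adjusted p = 0.0219, edgeR), with a value of -0.11 without the vehicle UV-A library of round 2.

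COL20A1 had 3 reads in vehicle dark, 9 in vehicle UV-A, 81 in 1-S dark and 70 in 1-S UV-A. It rose by 4.87 in the dark (SE 0.72, adjusted p = 2.5e-05, edgeR) and by 2.94 under UV-A (SE 0.64, adjusted p = 0.00159, edgeR) on the log2 scale. The 1-S libraries were alike, at 0.338 and 0.334 FPKM. In the dark the ratio of read shares rests on 3 reads in vehicle, and was 27.9 (95% counting interval 9.21 to 138). COL8A2, the partner chain of COL8A1, had 3, 2, 15 and 21 reads. The ratio of read shares was 5.16 in the dark (95% counting interval 1.46 to 27.8) and 12.0 under UV-A (2.93 to 105). COL8A2 rose by 2.77 in the dark and by 2.83 under UV-A (adjusted p = 0.0482 and 0.0377, edgeR), the latter 1.76 without the vehicle UV-A library of round 2. COL8A1 itself was at 26.9, 29.4, 12.2 and 8.27 FPKM and fell by 1.39 in the dark and 1.79 under UV-A (adjusted p = 6.1e-05 and 2.7e-06, edgeR). The partners therefore moved in opposite directions, at very different read depth.

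COL13A1 was at 80.3 FPKM in vehicle dark and 75.2 in vehicle UV-A, then 25.0 in 1-S dark and 19.8 in 1-S UV-A, with both 1-S libraries far below both vehicles. It fell by 1.90 in the dark (SE 0.22, adjusted p = 1.1e-06, edgeR) and by 1.91 under UV-A (SE 0.22, adjusted p = 9e-07, edgeR). COL17A1 was at 1.28, 0.887, 0.420 and 0.326 FPKM and fell by 1.72 and 1.50 (adjusted p = 0.00137 and 0.00674, edgeR). The transmembrane COL23A1 was not tested and had 0, 0, 9 and 6 reads, at least 3.1-fold higher in 1-S dark and at least 2.28-fold higher in 1-S UV-A against a floor of 3 reads per library.

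Of the basement membrane chains, COL4A1 was at 10.1 FPKM in vehicle dark and 9.04 in vehicle UV-A, then 5.15 in 1-S dark and 3.25 in 1-S UV-A. COL4A2 was at 27.8, 27.3, 20.2 and 11.2 FPKM. Both fell in the dark (COL4A1 by 1.28, COL4A2 by 0.80 on the log2 scale; adjusted p = 0.00031 and 0.0134, edgeR) and under UV-A (by 1.37 and 1.17; adjusted p = 0.00014 and 0.00062, edgeR). The log2 ratio of the libraries themselves in the dark was -0.96 for COL4A1 and -0.46 for COL4A2. Without the vehicle dark library of round 2 the fitted dark values were -1.94 and -1.51, and without its vehicle UV-A library those under UV-A were -0.69 and -0.43. COL4A5, a chain of kidney and skin basement membranes, was at 1.23, 1.17, 0.817 and 0.606 FPKM and fell by 0.98 under UV-A (adjusted p = 0.0247, edgeR). COL4A4 and COL4A6 were not called in any comparison, and COL4A3 had no more than 7 reads in any library and was not tested. COL18A1 was at 9.46, 9.25, 5.41 and 4.29 FPKM and fell by 1.07 and 1.05 (adjusted p = 0.00082 and 0.00091, edgeR), the latter -0.51 without the vehicle UV-A library of round 2. COL15A1, a relative of COL18A1, had 29, 13, 0 and 5 reads. It was lower in 1-S dark (adjusted p = 0.00215, edgeR) and was not called under UV-A. With 3 reads set for 1-S dark, the dark difference was 9.36-fold, with counting error of the 29 reads not included.

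The chains of collagen VI did not move together. COL6A1 was at 35.4 FPKM in vehicle dark and 27.9 in vehicle UV-A, then 20.2 in 1-S dark and 16.2 in 1-S UV-A. It fell by 0.90 in the dark and 0.88 under UV-A (adjusted p = 0.00086 and 0.00122, edgeR). COL6A3 was at 1.15, 0.815, 0.352 and 0.331 FPKM, and fell by 2.15 and 1.08 (adjusted p = 0.00012 and 0.0255, edgeR). COL6A3 rests on single vehicle libraries, since its value was -3.24 in the dark without the vehicle dark library of round 2 and 0.06 under UV-A without the vehicle UV-A library of round 2. COL6A2 was at 8.29, 7.06, 12.2 and 10.0 FPKM, with both 1-S libraries above both vehicles, and was not called by the 8-library fit. In the fit of round 2 alone it rose by 0.44 (SE 0.10, adjusted p = 2.1e-05, edgeR), where 56.6% of all genes were called. The spread in that fit was taken from the trend over all genes, not from COL6A2 itself. COL12A1 was at 12.3, 12.3, 9.67 and 4.84 FPKM and fell by 1.45 under UV-A (SE 0.19, adjusted p = 5.9e-06, edgeR), but was not called in the dark. COL7A1, at 1.83, 1.62, 2.27 and 1.43 FPKM, was not called with 1-S under either light.

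**Figure D4:**
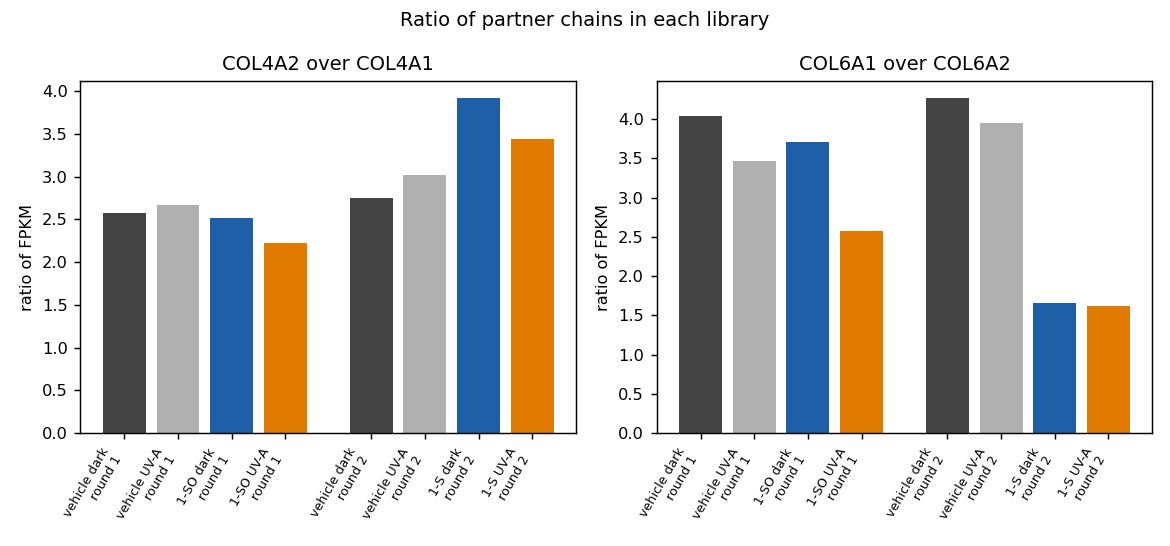
Ratio of FPKM between partner chains in each library (1 bar per library), COL4A2 over COL4A1 on the left and COL6A1 over COL6A2 on the right. COL4A2 over COL4A1 lies between 2.23 and 2.67 in round 1 and between 2.76 and 3.91 in round 2. In round 1, COL6A1 over COL6A2 is at 3.46 to 4.04 in the vehicles and 1-SO dark and at 2.57 in 1-SO UV-A. In round 2 it is at 4.28 and 3.95 in the vehicles and at 1.65 and 1.62 in the 1-S libraries. Gene lengths differ between the rounds, so the bars compare within a round only.

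The ratio of COL4A2 to COL4A1 was 2.23 to 2.67 in round 1, lowest in 1-SO UV-A, and 2.76 to 3.91 in round 2, highest in 1-S dark. The ratio of COL6A1 to COL6A2, genes that neighbour each other on chromosome 21, was 4.28 and 3.95 in the vehicles of round 2 and 1.65 and 1.62 in the 1-S libraries. In round 1 it was 2.57 in 1-SO UV-A and 3.46 to 4.04 in the other 3 libraries. COL4A1 and COL4A2 overlap by 1338 bases on opposite strands in the gene models of round 2, and the sources used here do not say if reads were counted by strand, so that reads in this overlap may be assigned to either. In all, 24 of the 43 members overlap another gene in those models. Opposite-strand neighbours above 1 FPKM were COL5A1-AS1 for COL5A1, TCFL5 for COL9A3 (45 bases) and NT5DC1 for COL10A1, besides the type IV pair.

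UV-A within 1-S cells called 0 of 27 collagens and 0.0% of all genes. At an unadjusted p under 0.05, 380 genes and 7 collagens passed in edgeR, and DESeq2 called 0 collagens. The lowest adjusted p was that of COL12A1, at 9.67 FPKM in 1-S dark and 4.84 in 1-S UV-A (log2 change -0.99, SE 0.20, adjusted p = 0.296). COL13A1 was at 25.0 and 19.8 FPKM, a fitted log2 difference of -0.32 (95% interval -0.78 to 0.13). For COL1A1 the interval was -0.63 to 0.35 and for COL20A1 -1.09 to 1.08.

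The fit of round 2 alone, with light and compound as terms, called 21 of 25 collagens over both lights, 9 higher and 12 lower, beside 56.6% of all genes (28.3% higher and 28.3% lower). Its spread rests on the interaction of light and compound in 4 wells, with a biological coefficient of variation of 7.39%, against 12.4% in the 8-library fit. The prior degrees of freedom were infinite here, against 22.6 in the 8-library fit. The spread of each gene was thus taken from the trend over all genes. COL2A1, COL8A2, COL11A2 and COL20A1 reached the count minimum of this fit in the 1-S libraries alone, and COL15A1 in the vehicles alone. This fixes the direction of their tests, and calls among them add no support to the counts. In this fit COL9A2, a cartilage FACIT chain at 1.25, 0.853, 1.63 and 1.76 FPKM in the 4 libraries of round 2, rose by 0.61 (SE 0.23, adjusted p = 0.0148, edgeR). COL13A1 fell by 1.89 and COL1A1 rose by 2.11 on the log2 scale.

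The compounds were compared at 10 µM and 24 h in the dark and under UV-A, relative to vehicle, and in the light response within their cells. In the dark 11 of 27 collagens were called, 9 higher and 2 lower with 1-SO than with 1-S, beside 13.4% of all genes (7.07% higher and 6.37% lower). The difference was 1.93 for COL13A1 (SE 0.27, adjusted p = 3.5e-05, edgeR), 2.58 for COL6A3, 1.43 for COL8A1 and 1.39 for COL4A1 on the log2 scale. It was -2.09 for COL1A1 (SE 0.31, adjusted p = 7.3e-05, edgeR) and -4.13 for COL20A1 (SE 1.10, adjusted p = 0.0142, edgeR). COL18A1, COL17A1, COL4A2, COL6A1 and COL15A1 were the other genes higher with 1-SO. COL15A1 had 14 reads in 1-SO dark and 0 in 1-S dark, so the size of its difference depends on the prior count. COL4A2, at 0.90 in the fit, was 0.42 without the vehicle UV-A library of either round and 1.39 without the vehicle dark library of either.

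Under UV-A only 3 of 27 collagens differed between the compounds by this test, beside 2.42% of all genes (0.885% higher and 1.54% lower). COL12A1 was 1.07 higher with 1-SO (SE 0.24, adjusted p = 0.0142, edgeR). COL1A1 was 1.73 lower (SE 0.31, log2 difference -1.73, adjusted p = 0.00184, edgeR), and COL27A1 had a log2 difference of -1.63 (SE 0.38, adjusted p = 0.0215, edgeR). COL13A1 was not called, with a log2 difference of 0.35 and a 95% interval of -0.21 to 0.91. The interval was -0.61 to 0.63 for COL4A2, -0.13 to 1.11 for COL4A1, -0.09 to 1.05 for COL8A1 and -0.95 to 2.77 for COL20A1. These intervals leave room for differences of up to the sizes given, so equal action is not shown.

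The light response within 1-SO cells of round 1 and within 1-S cells of round 2 differed for 3 of 27 collagens, beside 2.84% of all genes (0.995% higher and 1.85% lower). The response of COL20A1 was higher in 1-SO cells by 5.04 on the log2 scale (SE 0.93, adjusted p = 0.00416, edgeR). That of COL13A1 differed by -1.58 (SE 0.31, adjusted p = 0.00693, edgeR) and that of COL6A3 by -2.63 (SE 0.54, adjusted p = 0.00769, edgeR). This contrast does not take off the vehicle light response of each round. For COL6A3 the log2 ratio of UV-A over dark was -1.85 in vehicle and -2.58 in 1-SO cells of round 1, and -0.49 in vehicle and -0.09 in 1-S cells of round 2. The vehicle libraries thus differ between rounds in the same direction. For COL13A1 it was -0.48 in vehicle and -1.76 in 1-SO cells, and -0.09 in vehicle and -0.33 in 1-S cells. For COL20A1, on 2 and 9 reads in the vehicles of round 1 and 3 and 9 in those of round 2, it was 2.42 in vehicle and 5.21 in 1-SO cells, and 1.64 in vehicle and -0.01 in 1-S cells. Compound and round cannot be told apart here. COL5A1 and COL18A1 were near the threshold, with log2 differences of -1.11 and -1.13 and adjusted p of 0.0522 and 0.0538 in edgeR.

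The enzymes and chaperones of collagen making, a list of 34 genes of which 31 were tested, held genes that moved in both directions. With 1-SO UV-A against vehicle UV-A 2 were higher and 5 lower, beside 8.5% of all genes called (3.14% higher and 5.36% lower). In UV-A within 1-SO cells 2 were higher and 6 lower, beside 11.5% of all genes. LOX, the lysyl oxidase that cross-links fibrils, was at 6.95, 8.28, 6.52 and 16.8 FPKM in the 4 libraries of round 1, and rose by 1.03 on the log2 scale (SE 0.19, adjusted p = 0.00118, edgeR). LOXL2, its relative that cross-links type IV collagen, was at 110, 77.2, 108 and 44.1 FPKM and fell by 1.02 (SE 0.21, adjusted p = 0.00329, edgeR). LOXL4 fell by 0.95 and P3H2, a prolyl 3-hydroxylase, by 0.69 (adjusted p = 0.0107 and 0.0269, edgeR). The median over the 31 genes was -0.03 and that over all genes 0.01.

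With 1-S in the dark 5 genes of that list were higher and 11 lower, beside 27.0% of all genes called (13.6% higher and 13.4% lower). Under UV-A 3 were higher and 8 lower, beside 23.4% of all genes (11.6% higher and 11.9% lower). SERPINH1, the procollagen chaperone HSP47, was at 29.0, 31.7, 107 and 99.7 FPKM in the 4 libraries of round 2, and rose by 1.72 in the dark (SE 0.20, adjusted p = 7.4e-07, edgeR). P4HA2, a catalytic chain of prolyl 4-hydroxylase, was at 8.84, 7.30, 22.3 and 18.8 FPKM and rose by 1.33 (SE 0.18, adjusted p = 8.4e-06, edgeR). LOXL1 fell by 1.93 and LOXL4 by 1.63 in the dark (adjusted p = 3.4e-05 and 2.4e-05, edgeR). No gene of the list was called with 1-SO in the dark, in vehicle cells under UV-A or between the 1-S libraries.

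Of 11 collagen receptors 8 were tested, and 1-S had 2 higher and 5 lower under either light, beside 27.0% of all genes called in the dark and 23.4% under UV-A. ITGB1, the shared chain of the collagen-binding integrins, was at 275, 257, 124 and 94.6 FPKM in the 4 libraries of round 2, and fell by 1.29 in the dark (SE 0.25, adjusted p = 0.00055, edgeR). ITGA2, its partner for fibrillar collagen, was at 90.3, 73.7, 38.3 and 22.7 FPKM and fell by 1.27 (SE 0.22, adjusted p = 0.00016, edgeR). DDR2, a receptor kinase for fibrillar collagen, was at 0.215, 0.210, 1.69 and 1.47 FPKM and rose by 2.84 (SE 0.38, adjusted p = 7.1e-06, edgeR). With 1-SO UV-A against vehicle UV-A only ITGA10 was called, lower by 1.09 (log2 change -1.09, SE 0.29, adjusted p = 0.0189, edgeR). The median log2 change over the 8 receptors was -1.06 with 1-S in the dark and -0.27 with 1-SO UV-A.

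The authors' deposited tables compare pairs of libraries, with fewer collagens at an adjusted p under 0.05. In the authors' deposited table of 1-S dark over vehicle dark there were 3 higher, COL1A1, COL2A1 and COL20A1, and 4 lower, COL13A1, COL15A1, COL17A1 and COL6A3, among 603 higher and 247 lower genes of 58676 listed. The authors' deposited table of 1-S UV-A over vehicle UV-A had 3 higher and 5 lower collagens among 574 higher and 312 lower genes. In the authors' deposited table of 1-SO UV-A over vehicle dark, a pair that changes light and compound at once, COL20A1 was higher and COL13A1, COL4A1, COL4A2, COL5A1, COL6A3 and COL8A1 were lower, among 145 higher and 261 lower genes of 23871 listed. The authors' deposited tables of 1-SO dark over vehicle dark, of vehicle UV-A over vehicle dark in both rounds and of 1-S UV-A over 1-S dark had 0 collagens past that threshold.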

How the data were processed

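The 8 libraries of MDA-MB-231 RNA were made after poly-T selection, per the labels' protocols. Whole read counts per gene were deposited by the authors, and FPKM values were deposited beside them. FPKM was recomputed from the counts and gene lengths for 100% of genes in each library (tolerance 0.1%). Round 1 counts came from the authors' deposited comparison tables, in which genes not listed had an FPKM of 0. The authors' deposited tables also give log2 fold changes, p-values and adjusted p-values for 9 pairs of libraries. Tools named in the submitters' processing notes are STAR 2.5, HTSeq 0.6.1, edgeR 3.16.5, DESeq2, TopHat and STAR-Fusion, with the builds hg19 and hg38. Their roles, and whether counting used the strand, are not given in the sources used here. Round 2 coordinates equal GENCODE 29 on GRCh38 for 33 of 43 members and are the ones printed.

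The main test, edgeR 4.0.16 quasi-likelihood (R 4.3.3), used counts with TMM factors within each round, for the 15476 genes with at least 0.5 CPM in 2 libraries. Its terms were the round, a light response shared by the vehicles, and 1 term per compound library. This left 1 residual degree of freedom, moderated with 22.6 prior ones. Tests were two-sided. The round number pairs the samples because the labels tie it to a passage, and it was therefore a term of the fit. Standard errors and 95% intervals come from the same fit. Ratios of single libraries were added after the data were seen. DESeq2 1.42.0 and limma 3.58.1 served as alternatives, with other scaling and filters, and the test was tried on simulated data. Depth was 15.82 to 22.56 M reads per library. The collagens described with values in each library are those called in a test and the 3 most abundant of each class, with most others given by range or count. The genes, classes and lists were chosen with earlier results of these data known.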

Additional observations from a re-analysis of the deposited data

Results flagged for a closer look

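The response to UV-A within 1-SO cells of round 1 and within 1-S cells of round 2 differed for 3 collagens by the test of the difference itself (edgeR, 8-library fit). COL20A1 differed by 5.04 on the log2 scale, with 4 reads in 1-SO dark and 185 in 1-SO UV-A against 81 and 70 reads in the 1-S libraries, and its vehicles had 2 and 9 reads in round 1 and 3 and 9 in round 2. COL6A3 differed by -2.63, with 468 and 98 reads in the 1-SO libraries against 151 and 124 in the 1-S libraries. Its dark and UV-A vehicle libraries had 445 and 104 reads in round 1 and 508 and 348 in round 2, and the contrast does not take this off. COL13A1 differed by -1.58, with 119 and 35.1 FPKM in the 1-SO libraries against 25.0 and 19.8 FPKM in the 1-S libraries, and its vehicles had 124 and 89.0 FPKM in round 1 and 80.3 and 75.2 in round 2. Each compound has 1 library per light, and compound, round and passage cannot be told apart.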

How the results depend on the processing

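Counts of called collagens are given here in the order 1-SO UV-A against vehicle UV-A (8), UV-A in 1-SO (12), 1-S dark (15), 1-S UV-A (15), 1-SO against 1-S without light (11) or with it (3), and the light responses of both compounds (3). With no replicate block, that is without the round term, each of these 7 counts was 0. With DESeq2 they were 3, 7, 8, 7, 6, 1 and 1. With limma-trend on log2(FPKM + 1) they were 5, 11, 9, 8, 6, 0 and 2, and on log2(FPKM + 0.1) they were 5, 8, 11, 9, 4, 0 and 0. With no filter the light responses differed for 5, and 1 collagen was called in vehicle cells under UV-A, 1 in UV-A within 1-S cells and 2 with 1-SO within round 1. With a filter at 1 FPKM the fit of round 2 alone called 13 rather than 21. Median-of-ratios scaling kept all counts within 1 of these. The cause of these differences was not tested, except that the filters change the number of genes tested. The share of all genes called in each alternative setting is not given here. Whether these differences are particular to collagens was therefore not tested. Of the 562 repeated tests of the 88 called results, 405 kept their call and 157 lost it, with no change of sign. A result with no adjusted p in a setting, as where a filter removed the gene, was counted as neither. With the filter at 1 FPKM only 67 of the 88 were repeated. A vehicle library left out leaves no residual degree of freedom, and of the values then obtained 1 changed sign: COL6A3 with 1-S under UV-A ranged from -1.4 to 0.06. Low counts limit COL2A1, COL8A2, COL11A1, COL11A2, COL15A1 and COL20A1.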
